A study of Mus musculus with 8 samples.

Results

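Ulbp1 is a mouse gene on the minus strand of chromosome 10. Its span holds 226 of the 8492 cytosines that the deposited table lists as specific to mast cells lacking Tet2. The Ulbp1 sites were taken as all listed positions within the RefSeq span of the gene (gene ID 77777), from 7444873 to 7473641 on build GRCm38. The positions are given without strand, so it was not shown that the reads came from the Ulbp1 transcript. The gene was chosen by the number of its listed sites, with their levels known, so both are given as descriptions and were not tested. The cells were bone marrow derived mast cells of C57BL/6 mice, grown from marrow in medium with IL-3 and SCF, and used at a purity of more than 97.5% FcεRI+ c-Kit+ cells, per the labels. The series describes 8 libraries, 4 from wild type and 4 from Tet2-/- cells, with 2 biological replicates of each genotype and 2 technical replicates of each of those. The levels come from the 4 Tet2-/- libraries. They are called here 1a and 1b, the technical replicates of biological replicate 1, and 2a and 2b, those of biological replicate 2. Levels of wild-type cells were not used here, and no value compares genotypes. The labels do not say whether the biological replicates came from separate animals, nor how old the mice were. Markers of mast cells or of other cells could not be used to check the cell type, because the table gives no expression.

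The product of Ulbp1, also called MULT1, is a surface protein related to MHC class I molecules and is a ligand of NKG2D, an activating receptor of natural killer cells and of some T cells. Such ligands are known to be scarce on resting cells and to be raised by stress, infection or transformation, which marks a cell for attack. RNA bisulfite sequencing turns unmodified cytosine into uracil, so that a cytosine still read as cytosine counts as methylated. Cytosine left unconverted is counted too. Tet2 is an enzyme that oxidises 5-methylcytosine. A level is the share of reads with a cytosine at the site, in percent. The lowest level listed in the table was 10%, so sites below it cannot be seen. In bulk RNA, methylation of part of the transcripts in every cell and full methylation in some of the cells cannot be told apart. Read numbers are not in the table used here, so the depth behind a level is unknown. A level from few reads can take only a few values.

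The listed sites lay in a short part of the gene. All 226 fell between 7450607 and 7454117, a window of 3511 bases in a span of 28769 bases. RefSeq places the start of Ulbp1 transcription at 7473477, and the sites lay between 19360 and 22870 bases downstream of it. The lowest site stood 5734 bases above the end of the gene span at 7444873. The promoter window, from 7473428 to 7473727, held 0 listed sites, and 0 lay within 1 kb outside the span. Gm46209, a pseudogene inside the span from 7458319 to 7458909, also held 0, so that no listed Ulbp1 site fell into another gene. Chromosome 10 as a whole had 231 listed sites, and Ulbp1 held 97.8% of them. Exons, introns and untranslated regions were not analysed here, nor was the sequence around the sites, so it is not known which sites lie in the mature mRNA.

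Sites up to 500 bases apart were joined into a stretch, which gave 2 stretches. The first ran from 7450607 to 7452869 with 220 sites, or 97.3% of the gene's sites, at 9.72 sites per 100 bases. The second ran from 7454000 to 7454117 with 6 sites. A gap of 1131 bases parted them. Joining sites up to 100 bases apart parted the gene into 6 segments, numbered here by chromosome position, so that segment 6 is nearest to the transcription start and equals the second stretch. Segments 1, 2 and 3 each had 63 sites, from 7450607 to 7450973, from 7451192 to 7451590 and from 7451727 to 7452126. Segment 4 had 17 sites in 80 bases, from 7452564 to 7452643, and segment 5 had 14 sites, from 7452756 to 7452869. Segment 4 was the densest, with 21.2 sites per 100 bases. With all listed sites joined in the same way, 146 regions had 10 or more sites, and 5 of these had more sites than the first Ulbp1 stretch.

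Ulbp1 sites were methylated at a level of 30.7% ± 2.09 on average (SD, n = 2 biological replicates). The mean over its sites was 34.0% in library 1a, 24.5% in 1b, 28.5% in 2a and 35.9% in 2b. The libraries 1a and 2b were thus the higher ones and 1b the lowest, and the libraries of the biological replicates overlapped. Site means ran from 11.5% to 64.2% with a median of 27.9%, and the middle 50% lay between 22.9% and 36.4%. Of the 226 sites, 27 had a mean under 20%, 162 a mean from 20% to under 40%, and 37 a mean of 40% or more. The fullest class was 20% to 25%, with 63 sites. Most Ulbp1 sites thus stood at a low to middle level. The highest value of any Ulbp1 site in any library was 85.7%, and 3 Ulbp1 values stood at the floor of 10%.

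**Figure D1:**
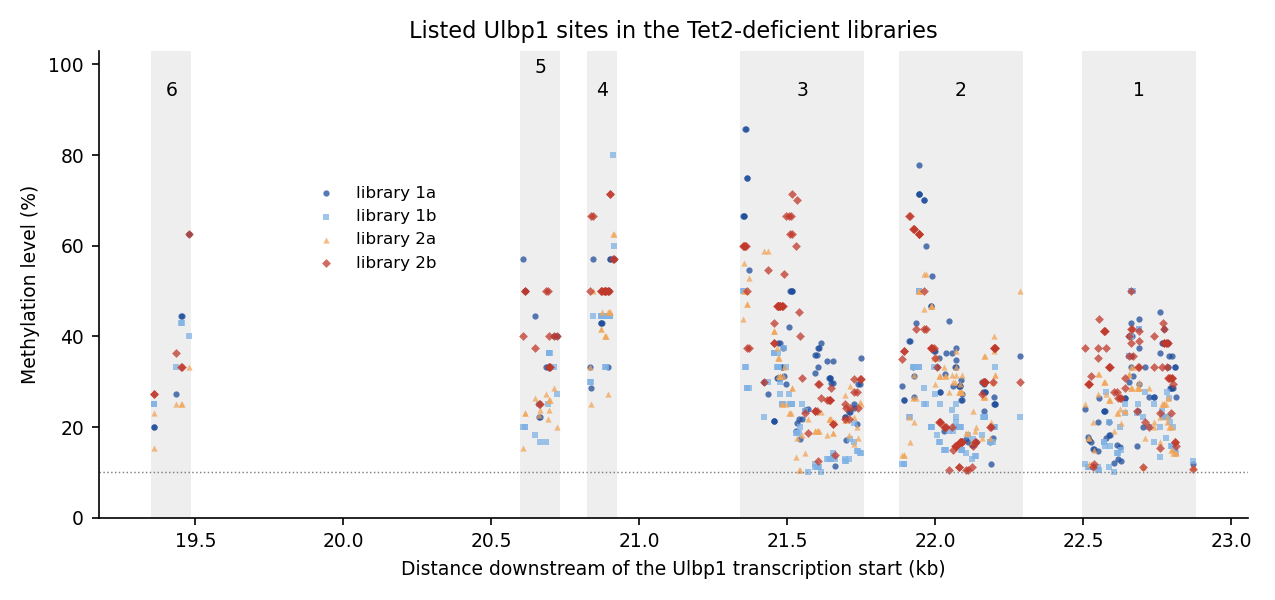
Methylation level in percent (vertical axis) of each listed Ulbp1 site against its distance downstream of the transcription start in kb (horizontal axis), with a point for each of the 4 Tet2-/- libraries; grey bands are the 6 numbered segments and the dotted line is the 10% floor of the table. Mean levels were highest in segment 4, and within segments 2 and 3 the highest crowds of sites lay on the side that faces the transcription start.

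On average, segment 4 stood above the rest of the gene in every library. Its mean was 47.6% in library 1a, 44.4% in 1b, 43.6% in 2a and 55.3% in 2b. The other Ulbp1 sites had means of 32.9%, 22.9%, 27.3% and 34.3% in the same libraries, so these library means did not overlap. Single sites did overlap, since the site means of segment 4 began at 36.7% and those of segment 2 reached 60.1%. The difference between segment 4 and the other sites was 14.8, 21.6, 16.3 and 21.0 points in libraries 1a, 1b, 2a and 2b. It was 18.4 points ± 0.359 on average (SD, n = 2). The technical replicates thus differed by far more than this SD, which was 4.09 points with the column names read the other way. The mean difference was 11.1 points when only sites of at least 20% in every library were kept. All sites of segment 4 met this minimum, so it left out sites only from the other segments. Levels in segment 4 often repeat, such as 50% in library 1a and 44.4% in 1b at 7452581, 7452582, 7452594 and 7452595. Few reads can give such values, and the part of depth was not tested. The segment was picked after its values were seen, and an exact test over 2 biological replicates cannot go below a two-sided p of 0.5, so none was run.

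The other segments lay closer together. Segment 1 had 27.7%, 21.8%, 23.3% and 31.4% in libraries 1a, 1b, 2a and 2b, with a mean of 26.0% ± 1.83 (SD, n = 2). Segment 2 had 34.0%, 21.9%, 31.1% and 30.8%, with a mean of 29.5% ± 2.13. Segment 3 had 35.5%, 23.0%, 28.5% and 39.3%, with a mean of 31.6% ± 3.30. The means of these segments were in the order of their position, but the libraries of all 3 overlapped. Within each library segment 3 stood above segment 1, but segment 2 did not lie between them in 2a and 2b. Segment 5 had 37.6%, 26.3%, 23.9% and 39.1%, with a mean of 31.7% ± 0.305, although its libraries spanned 15.2 points. Segment 6 had 36.4%, 34.8%, 24.5% and 36.7%, with a mean of 33.1% ± 3.58. Library 2b was the highest in 5 of the 6 segments and 1a in segment 2. Library 1b was the lowest in 3 segments and 2a in the other 3.

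**Figure D2:**
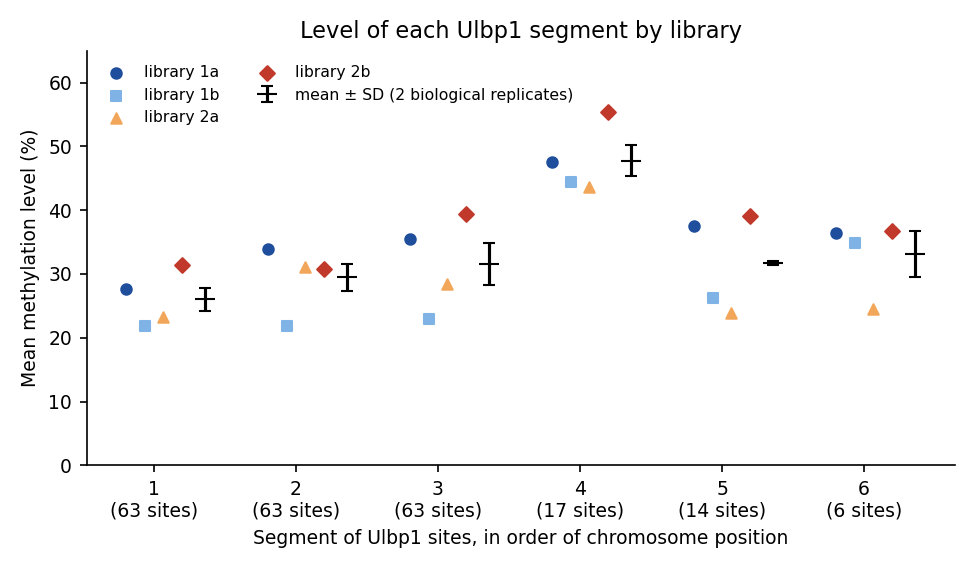
Mean methylation level in percent (vertical axis) of the sites of each Ulbp1 segment (horizontal axis, in order of chromosome position, with the number of sites); coloured points are the 4 libraries, and the black tick with its bar is the mean of 2 biological replicates with the SD. Segment 4 stands at 47.7%, and the other 5 segments lie between 26.0% and 33.1%.

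The libraries did not share a direction between the 2 stretches. The second stood above the first by 2.53 points in library 1a, 10.6 points in 1b and 0.841 points in 2b, while in 2a the difference was -4.16 points. The mean difference of 2.47 points ± 5.83 (SD, n = 2) was smaller than its SD. Without replicate 1 it was -1.66 points, among sites of at least 20% in every library -3.00 points, and among sites with no other listed site within 10 bases 13.4 points ± 7.86. In the second stretch this last setting kept only 7454000 at 49.6%, the highest site of the stretch, and 7454041 at 30.5%.

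Within the segments, levels changed from one crowd of sites to the next. Joining sites up to 10 bases apart gave 47 crowds, of which 18 had 5 or more sites and held 169 sites. The means of these 18 ran from 16.8% to 53.1% with a median of 26.6%. Segments accounted for 25.1% of the variance of the site means and crowds for 86.1%, a share that grows with the number of groups. The highest of the larger crowds was the end of segment 3, with 8 sites from 7452107 to 7452126 at 72.0%, 37.8%, 49.6% and 53.1% in libraries 1a, 1b, 2a and 2b. Segment 4 follows it after a gap of 438 bases without a listed site and begins with a crowd of 14 sites, from 7452564 to 7452606, at 49.3%, 46.5%, 45.2% and 54.1%. The next in level was near the end of segment 2, with 8 sites from 7451531 to 7451552 at 53.3%, 37.5%, 38.2% and 60.3%. The lowest was in segment 1, with 6 sites from 7450942 to 7450960 at 16.6%, 11.1%, 15.8% and 23.7%. Its 4 libraries lay below all 4 libraries of each of the 3 high crowds.

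The highest single sites lay in segments 2, 3 and 4. The 5 highest sites were 7452567 at 64.2% ± 6.19, 7451534 at 60.1% ± 5.40, 7452564 at 59.2% ± 0.884, 7451533 at 58.5% ± 3.16 and 7452123 at 58.2% ± 0.147 (SD, n = 2 for each). The site at 7452567 read 57.1% in libraries 1a and 2b, 80% in 1b and 62.5% in 2a. All of these sites read 50% or more in every library. In Ulbp1 6 sites (2.65%) did so, 2 each in segments 2, 3 and 4, beside 33.6% of all listed sites. A mean of 50% or more was found at 16 sites, 5 in segment 2, 6 in segment 3 and 5 in segment 4.

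The 5 lowest sites were 7450607 at 11.5% ± 0.862, 7450942 at 13.3% ± 0.178, 7451353 at 14.2% ± 0.447, 7450944 at 14.6% ± 2.09 and 7451817 at 14.9% ± 3.69 (SD, n = 2 for each). The site at 7450607 is the one farthest from the transcription start and read 11.8%, 12.5%, 11.1% and 10.7% in libraries 1a, 1b, 2a and 2b. Levels under 20% in every library were found at 6 sites (2.65%), 2 in segment 1 and 4 in segment 2, beside 2.45% of all listed sites. Levels of 20% or more in every library were found at 118 sites (52.2%), beside 75.5% of all listed sites. At the other edges of the stretches, 7452869 stood at 33.1% ± 7.69, 7454000 at 49.6% ± 2.36 and 7454117 at 23.8% ± 1.89 (SD, n = 2 for each).

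Ulbp1 lay below the other listed sites in each library. The 8266 other sites had means of 54.3%, 50.2%, 50.5% and 54.3% in libraries 1a, 1b, 2a and 2b. Ulbp1 differed from them by -20.3, -25.8, -22.0 and -18.4 points, on average by -21.6 points ± 1.99 (SD, n = 2). The difference was -10.4 points with each region counted once in place of each site, and -9.46 points among sites with no other listed site within 10 bases. The SD over the site means of Ulbp1 was 10.7 points. Among the 53 genes with 10 or more sites the median of this SD was 13.4 points, and 18 genes had a smaller one than Ulbp1. No Ulbp1 site had a mean of 65% or more. The share of Ulbp1 values under 20% was 13.7%, 37.6%, 20.4% and 13.7% in libraries 1a, 1b, 2a and 2b. Over the other sites it was 8.75%, 12.9%, 13.5% and 9.44%, lower than for Ulbp1 in each library.

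**Figure D3:**
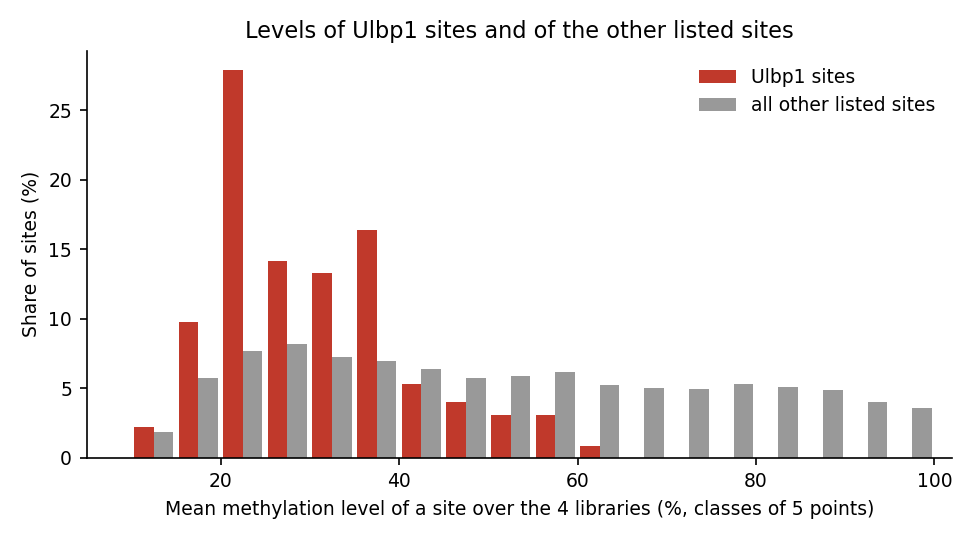
Share of sites in percent (vertical axis) by the mean methylation level of a site over the 4 libraries, in classes of 5 points (horizontal axis), for the 226 Ulbp1 sites in red and the 8266 other listed sites in grey. The class of 20% to 25% holds 27.9% of the Ulbp1 sites and 7.67% of the others, and Ulbp1 has none from 65% upward.

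Among genes with listed sites, Ulbp1 had many sites and a low level, which was not particular to it. Of 110 genes with a listed site, it ranked 8 by number of sites. Among the 53 genes with 10 or more sites it was the 7th from the lowest level, with 6 genes below it and 46 above, and the median gene stood at 48.2%. The 3 genes most like Ulbp1 were those with the smallest root-mean-square difference of the gene mean over the 4 libraries. Cd200r4, of the CD200 receptor family, came first with a difference of 3.09 points. Its 60 sites read 28.9%, 24.2%, 25.9% and 33.6% in libraries 1a, 1b, 2a and 2b, so that the libraries stood in the same order as in Ulbp1. Cd200r4 was picked by these same values, so the order is no separate likeness. Over the other listed sites, too, 1a and 2b were the higher libraries (54.3% each) and 1b the lowest (50.2%). Cyp4a12a, a cytochrome P450, followed at 3.42 points, with 41 sites that read 34.4%, 21.0%, 34.3% and 36.6%. Cflar, an inhibitor of death receptor signalling, was the next at 4.42 points, with 78 sites that read 38.9%, 29.0%, 33.7% and 33.2%. The means were 28.1% ± 2.30 for Cd200r4, 31.6% ± 5.48 for Cyp4a12a and 33.7% ± 0.356 for Cflar (SD, n = 2 for each). The libraries of all 4 genes overlapped. Within each library Cd200r4 lay below Ulbp1, though in 1b at 24.2% against 24.5%. Cyp4a12a lay below Ulbp1 only in 1b and Cflar only in 2b, so their order to Ulbp1 is not resolved. Cd200r4 and Cyp4a12a have close relatives with which they may share reads. Likeness over 4 libraries is a description of level.

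**Figure D4:**
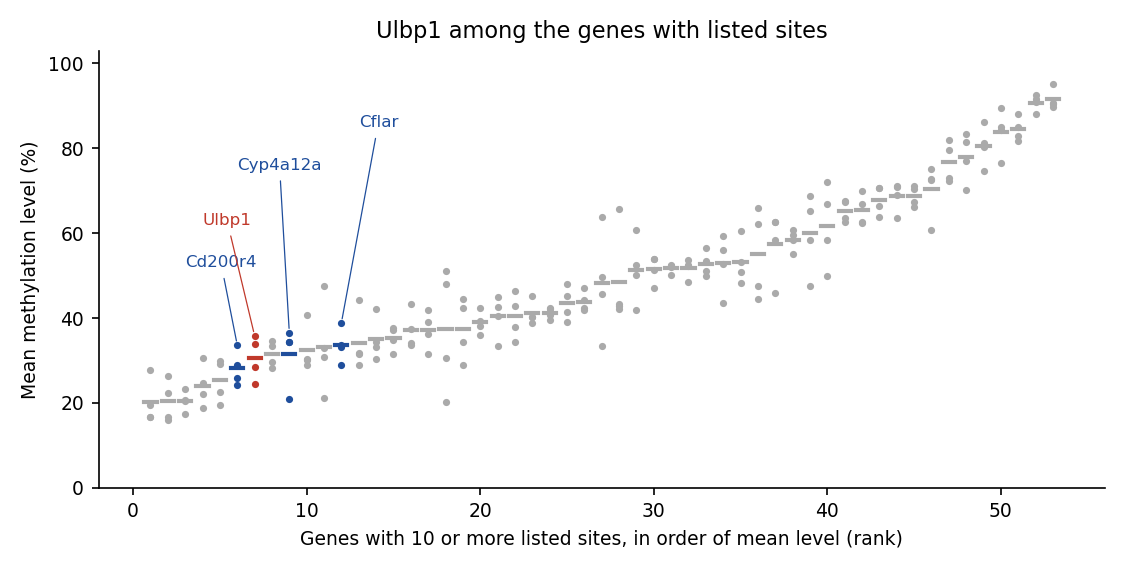
Mean methylation level in percent (vertical axis) of the listed sites of the 53 genes with 10 or more sites, ranked by level (horizontal axis); points are the 4 libraries and the bar is their mean. Ulbp1 is in red at 30.7%, and the 3 genes most like it, Cd200r4, Cyp4a12a and Cflar, are in blue.

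Other genes of the NKG2D system were looked up by function. The list had 9 ligands, 3 genes of the receptor and its adaptors, 6 signalling genes below the adaptors and 10 genes known to act on ligand levels, and 24 of these 28 matched a RefSeq gene. Ulbp1 itself was chosen for its sites. Of the other 23 matched genes, 0 had a listed site, beside 0.22% of all RefSeq genes. At so low a share, 0 is likely for any list of this size, so the count cannot tell the list from that background. The ligands Raet1d, Raet1e, H60b and H60c had 0. The receptor gene Klrk1 and its adaptors Hcst and Tyrobp had 0. The same held for all 6 signalling genes, Vav1, Grb2, Pik3r1, Plcg2, Syk and Zap70. It also held for the stress kinases Atm, Atr and Chek1, the regulators Trp53 and E2f1, the ubiquitin ligases Marchf4 and Marchf9, and the proteases Mmp14, Adam10 and Adam17. A count of 0 does not show that a transcript was unmethylated, since reads can be too few, levels can lie under 10%, and the authors listed a chosen set of sites.

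Differences between libraries were as large within biological replicates as between them. Over Ulbp1, library 1a exceeded 1b by 9.50 points and 2b exceeded 2a by 7.35 points (2a minus 2b, -7.35). The biological replicates stood at 29.2% and 32.2%, a gap of 2.96 points. The mean absolute difference of a site was 12.0 points between technical replicates and 10.4 points between libraries of different biological replicates. Over the other listed sites the gap of 1a to 1b was 4.03 points and that of 2a to 2b was -3.74 points, in the same direction and smaller. Library 1b was the lowest of the 4, without a tie, at 115 Ulbp1 sites (50.9%), beside 31.9% of all listed sites. The column names can also be read with a and b as the biological replicates, and b minus a was -1.08 points.

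The libraries of biological replicate 1 both lay below those of replicate 2 at 40 Ulbp1 sites (17.7%), beside 15.7% of all listed sites, and both above at 9 sites (3.98%), beside 14.7%. Of the 40 sites, 18 lay in segment 1, 9 in segment 2, 11 in segment 3, and 1 each in segments 4 and 5. The largest gap was at 7452044 in segment 3, which read 27.3% and 30% in libraries 1a and 1b and 58.8% and 54.5% in 2a and 2b. Its replicates differed by 28.0 points. The median SD of a site over the biological replicates was 3.56 points. Neighbouring sites are not independent, so these counts of sites are no test of a difference between replicates.

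Libraries parted in different ways from one crowd of sites to the next. In segment 1, the 7 sites from 7450888 to 7450907 read 20.8% and 17.8% in libraries 1a and 1b and 27.9% and 37.3% in 2a and 2b. In segment 2, the 18 sites from 7451387 to 7451447 read 31.2% and 30.3% in libraries 1a and 2a and 18.9% and 16.2% in 1b and 2b, so the technical numbers and not the biological ones stood together there. In segment 3, the 20 sites from 7451962 to 7452023 read 51.8% in library 2b and 35.1%, 30.5% and 31.3% in 1a, 1b and 2a. These crowds were chosen after their values were seen.

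Sites close to each other shared these deviations. Each site's level was taken as the deviation from its own mean over the 4 libraries, less the mean deviation of the library over Ulbp1. For the 410 pairs of Ulbp1 sites 1 to 10 bases apart the deviations correlated at 0.738, and for the 1292 pairs 11 to 50 bases apart at 0.433. At 51 to 150 bases the correlation was -0.0491 over 2494 pairs, and in the next class, up to 300 bases, it was -0.132 over 2378 pairs. Pairs share sites and libraries, and pairs of close sites can share reads, so these are descriptions with no test.

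**Figure D5:**
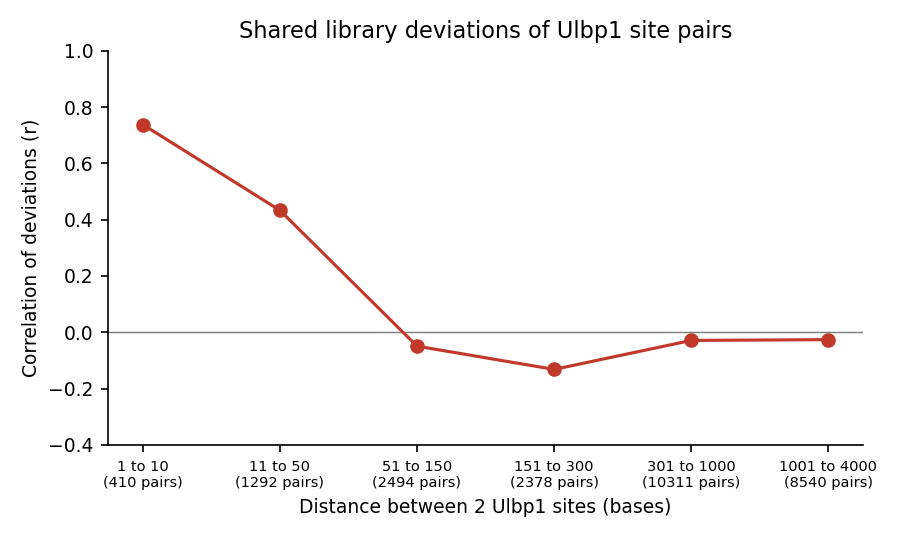
Correlation of the library deviations of 2 Ulbp1 sites on the vertical axis, by 6 classes of their distance in bases on the horizontal axis, with the number of pairs in each. It falls from 0.738 at 1 to 10 bases to -0.0491 at 51 to 150 bases.

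The spacing of the Ulbp1 sites was near that of the other listed sites. A listed site within 10 bases was found for 215 of the 226 sites (95.1%), beside 93.7% of all listed sites. The first stretch had 9.72 sites per 100 bases, and the median of the 146 regions with 10 or more sites was 11.1. The 11 sites without one read 29.6%, 20.9%, 32.5% and 33.2% in libraries 1a, 1b, 2a and 2b, with a mean of 29.1% ± 5.39 (SD, n = 2), and overlapped the other 215 sites at 30.8% ± 1.92. A site directly followed another listed position at 63 sites (27.9%), against 22.3% of all listed sites. There were 37 runs of 2 positions, 10 runs of 3 and 2 runs of 4. Of these 63 directly adjacent neighbours, 16 (25.4%) had equal levels in all 4 libraries, to within 1e-06 points, and over all listed sites the share was 12.6%. Of neighbours 2 to 10 bases apart, 4 (3.45%) had equal levels in Ulbp1 and 4.19% over all listed sites.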

How the data were processed

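Poly(A) RNA of mast cells was treated with DNase and bisulfite and made into stranded paired-end libraries, per the labels' protocols. Builds, per the submitters' processing notes, are GRCm38 and mm10. The aligner, the caller, the coverage minimum, the conversion rate and the rule of choice were not given in the sources used here. Per the file headers, the deposited table gives for each site a methylation rate, a fraction from 0 to 1 without strand or read number, which was multiplied to percent. Its title line calls the sites specific to the Tet2-deficient group.

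In each column name the first number was taken as the biological and the second as the technical replicate. The table had 8492 sites with 0 repeated positions and 0 empty cells. Technical replicates were averaged, and the SD is over 2 biological replicates. Gene spans and the transcription start are from RefSeq, GRCm38.p6. No test was run on a level or a difference, apart from a rule that flags a library far from the rest. The members, lists and measures were chosen with earlier results of these data known. Sites were named by rule (the 5 highest and lowest, the stretch ends, the largest replicate gap, and the 3 genes most like Ulbp1 in level), and the segments and crowds named otherwise after their values were seen. The correlation by distance and the difference between the stretches were tested on simulated data, and the other measures were not. Python 3.11.15, numpy 2.4.6, pandas 2.3.3 and matplotlib 3.10.9 were used.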

Additional observations from a re-analysis of the deposited data

Results flagged for a closer look

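A library far from the rest was looked for in 28 values (the gene, its segments, the named sites, the differences and the genes most like it). There were 2, and chance gives about 1 in 20. In segment 6, the second stretch with 6 sites, library 2a read 24.5% and the others from 34.8% to 36.7%, with a gap of 0.850 of the range. In Cyp4a12a, library 1b read 21.0% and the other 3 lay between 34.3% and 36.6%, a gap of 0.855 of the range. Library 1b also had the lowest mean over Ulbp1.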

How the results depend on the processing

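The Ulbp1 level of 30.7% was 28.2% as a median over sites, 38.2% among sites of at least 20% in every library and 33.3% with each segment counted once. Leaving out a replicate gave 29.2% to 32.2%, which by construction stays within the SD. The difference between the stretches was 13.4 points without clustered sites and -3.00 points among sites of at least 20%, and ran from -1.66 to 6.59 points with a replicate left out. Without clustered sites, the second stretch kept only 7454000 and 7454041. The difference to the other sites was -10.4 points with each region counted once and -9.46 points without clustered sites. With the column names read the other way, the biological replicates are other groups, and b minus a was -1.08 points. The 226 sites fell to 118 with a minimum of 20% in all 4 libraries and to 47 with positions within 10 bases merged. The 2 stretches became 6 with sites joined up to 100 bases. The excess of segment 4 was 19.9 points as a median and 11.1 points among sites of at least 20%, a minimum that left out sites only from the other segments. The cause of these changes was not tested. Counting each segment once, the settings on segment 4, and the settings without clustered sites and with the 20% minimum for the other sites were added after seeing the data. No paired analysis was possible because only libraries of 1 genotype were used, and the genotype fit was not run. The limits set by depth are unknown.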
